A study of Mus musculus with 2 samples.

Results

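Dlx1, Dlx2, Dlx3, Dlx4 and Dlx5 are homeobox genes of the distal-less family, and they were taken by symbol as 5 of the 32285 genes listed in single-cell RNA sequencing of developing mouse hair follicles (HFs). Their levels were followed across matrix, sheath and shaft cells and compared with those of the other follicle cells. Back skin was taken from mice at postnatal day 1 (P1), the epidermis was separated off with an enzyme, and epithelial cells of the follicles were sorted by their tdTomato signal. Transcripts were captured at their 3′ ends in droplets, and each captured molecule was counted once through its unique molecular identifier (UMI). There was 1 PADI4 WT library and 1 whose label reads PADI4 cKO, both of batch 1. The cKO combines K14-Cre with Padi4 fl/fl and removes Padi4, a protein-citrullinating enzyme, in cells in which the keratin 14 promoter is or has been active. The tdTomato Ai14 reporter used for the sort also needs Cre, so sorted cells of either library have a history of keratin 14 promoter activity. The Padi4 alleles of the WT library and the number of animals in each library are not given in the sources used here.

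The Dlx genes encode transcription factors that bind DNA through a homeodomain, and in mammals they lie in pairs of neighbors transcribed toward each other. Dlx1 and Dlx2 are best known from the interneurons of the forebrain and the jaw arches, Dlx3 from the epidermis, hair, teeth and placenta, and Dlx5 and Dlx6 from skeleton and limb. In the follicle, matrix cells of the germinative layer (GL) divide and give rise to the inner root sheath (IRS), to the cortex and cuticle (Cx) and to the medulla (Med) of the hair shaft, while the outer root sheath (ORS) encloses them and the lower proximal cup (LPC) lies around the base of the bulb. Dlx3 is needed for shaft and sheath formation, and BMP and Wnt signals act upstream of it.

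On the GRCm38 assembly, Dlx1 lies at chr2:71528113-71533981 on the plus strand and Dlx2 at chr2:71543408-71546754 on the minus strand, so that their 3′ ends face each other. The same arrangement was annotated for Dlx3 (chr11:95120119-95125296, plus) and Dlx4 (chr11:95140447-95146263, minus), and Dlx5 (chr6:6877805-6882085, minus) faces Dlx6 (chr6:6863334-6868568, plus). The homeoboxes of Dlx1 and Dlx2 are printed here because they show how alike neighboring members are while still differing at many bases. The Dlx1 homeobox is split between the coding part of exon 2 (chr2:71531025-71531156) and exon 3 (chr2:71532264-71532311), and that of Dlx2 between exon 2 (chr2:71545384-71545515) and exon 3 (chr2:71544877-71544924). Each is 180 bases long and is written 5′ to 3′ in the sense of its own gene. Capitals in Dlx2 mark the 47 bases that differ from Dlx1.
Dlx1: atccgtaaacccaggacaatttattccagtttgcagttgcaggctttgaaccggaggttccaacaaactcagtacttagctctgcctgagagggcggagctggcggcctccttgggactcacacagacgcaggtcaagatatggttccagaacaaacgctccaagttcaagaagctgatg
Dlx2: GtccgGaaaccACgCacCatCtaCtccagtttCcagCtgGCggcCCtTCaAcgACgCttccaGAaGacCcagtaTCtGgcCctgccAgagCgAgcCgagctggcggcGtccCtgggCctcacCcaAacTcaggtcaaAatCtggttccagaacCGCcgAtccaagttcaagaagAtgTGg
The 60 encoded residues were 86.7% identical between Dlx1 and Dlx2, and over the 10 pairs of the 5 genes the identity ran from 78.3% (Dlx2 with Dlx4) to 93.3% (Dlx2 with Dlx5). In the last 500 bases of their transcripts, nearest to where a 3′ library starts, the 5 genes shared 0 stretches of 31 bases with each other. Dlx1 overlaps Dlx1as (chr2:71516454-71537891) and Dlx4 overlaps Dlx4os (chr11:95145052-95159047) on opposite strands, and the strand setting of the counting is not given in the sources used here.

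The filters left 8069 PADI4 WT and 7394 cKO-labelled cells with medians of 14670 and 16208 UMIs, and 17 barcodes with at least 2000 UMIs occurred in both libraries. Leiden clustering, run without the Dlx genes, gave 23 clusters, of which 18 held at least 50 cells in each library and are compared here. Names followed marker lists and carry "-like", and 6 clusters had a list of GL, IRS or Cx genes as their best match, with at least 3 markers raised, and are called the inner clusters (2704 and 2320 cells). The partition moved with the random seed, and 4 other seeds gave adjusted Rand indices of 0.574 to 0.643 to it, so comparisons of clusters are given with the number of seeds that kept their direction or with their range over the 5 seeds. Padi4 had 98 UMIs in the WT library and 92 in the other, a log2 ratio of −0.12 (95% interval −0.54 to 0.31), which did not set the libraries apart, and 3′ UMIs do not show the floxed exons. Of the WT cells 26.0% had Xist UMIs and no UMIs of 4 Y-linked genes and 62.4% the reverse, against 98.4% and 0% in the library labelled PADI4 cKO, so the libraries differed in sex composition as well as genotype, and their ratios are also given within the Xist-only cells. With 1 library per genotype there is no replicate check, and all intervals given are exact 95% intervals that cover counting error only.

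All 5 genes were detected, and Dlx3 supplied most of the family's UMIs. In the epithelial cells, UMI counts scaled to a library of 1000000 UMIs (CPM) were 98.5 (WT) and 105 (cKO) for Dlx3, 32.4 and 36.9 for Dlx2, 20.3 and 18.2 for Dlx4, 11.6 and 11.7 for Dlx1, and 1.35 and 1.17 for Dlx5. Dlx5 rested on 172 and 152 UMIs. Its neighbor Dlx6 had 0 UMIs in the epithelial cells of either library, and the antisense transcript Dlx6os1 had 3 and 8. A 3′ UMI is counted per molecule and not per length, but capture can differ between genes, so these levels describe the UMIs of each gene rather than its mRNA number. Free RNA contributed little: judged by collagen and hemoglobin genes, its share of the UMIs of epithelial cells was no more than 7.84% in WT and 6.73% in the other library, which would give at most 7.90 and 7.30 CPM of Dlx3.

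**Figure D1:**
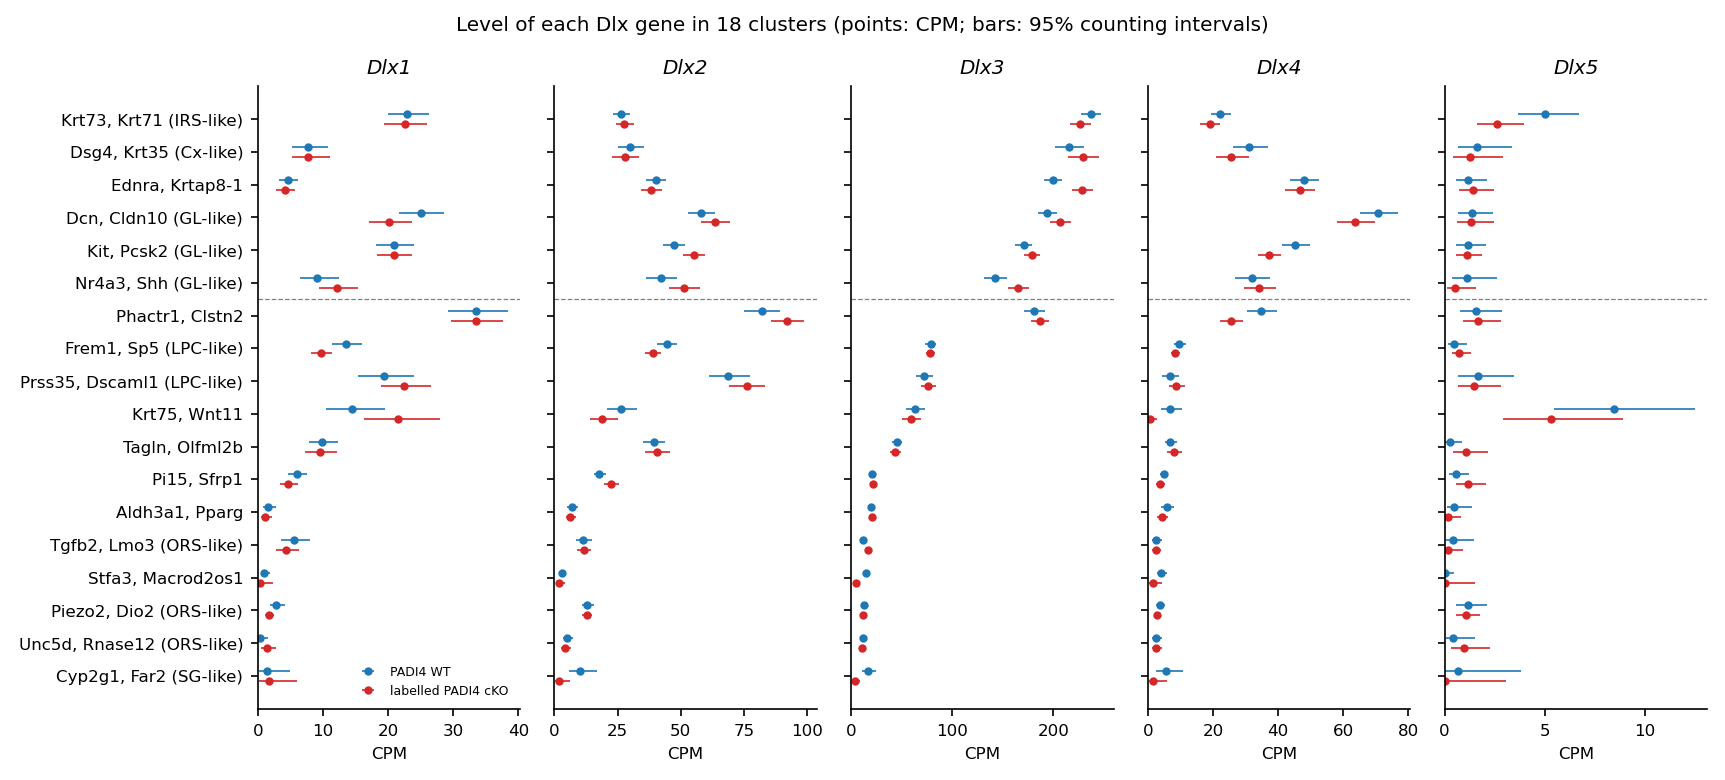
Level of each Dlx gene (x axes, CPM, separate scale per gene) in the 18 clusters (y axis, by leading genes) of the PADI4 WT library (blue) and the library labelled PADI4 cKO (red), with 95% counting intervals as bars. The 6 inner clusters are above the dashed line and hold 5 of the 6 highest levels of Dlx3 and of Dlx4 in both libraries, while the Phactr1 cluster has the highest Dlx2 (82.0 and 92.2 CPM) and the Krt75 cluster the highest Dlx5 (8.44 and 5.30 CPM).

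Dlx3 was high throughout the inner follicle and low in the ORS. Its level was 237 CPM (227 to 247) in WT and 226 (216 to 237) in cKO-labelled IRS-like cells, led by the sheath keratins Krt73 and Krt71. In Cx-like cells, led by the desmosomal cadherin Dsg4 and the cortex keratin Krt35, it was 216 (202 to 230) and 229.6 (215 to 245). An unnamed cluster led by Ednra and Krtap8-1, in which 6 of 8 GL markers and 3 of 4 Med markers were raised, had 199.7 and 229 CPM. The log2 ratio of Cx-like over IRS-like cells was −0.14 (−0.25 to −0.02) in the WT library and 0.02 (−0.10 to 0.14) in the other. Cx-like cells were the lower in WT under 3 of 5 seeds, so no steady difference in Dlx3 between sheath and shaft was found.

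Among the matrix-like clusters Dlx3 was graded. It was 194 and 207 CPM in the GL-like cluster led by Dcn and Cldn10, and 171 and 179 in the GL-like cluster led by Kit, a receptor, and Pcsk2. The GL-like cluster led by Nr4a3 and Shh, the latter encoding the hedgehog ligand of the bulb, was the lowest of the 6, at 142 (131 to 154) and 165 (155 to 176) CPM. The log2 ratio of the Dcn cluster over the Shh cluster was 0.45 (0.32 to 0.58) in WT and 0.32 (0.21 to 0.44) in cKO-labelled cells, with the same direction under each of the 5 seeds. An unnamed cluster led by Phactr1 and Clstn2, with only 2 of 8 GL markers raised (Msx2 and Cux1) and therefore not among the inner clusters, had 181 and 187 CPM. The 2 LPC-like clusters were well below, at 78.5 and 77.9 CPM in the cluster led by Frem1 and Sp5 and 72.5 and 76.2 in the cluster led by Prss35 and Dscaml1. Their intervals did not meet that of the Shh cluster in either library. Over the seeds, the Dlx3 level of the Prss35 counterparts ran from 72.5 to 119 CPM in WT and from 76.2 to 113 in the other library. The ranges of the Shh cluster were 142 to 149.6 and 152 to 176 CPM. In WT, the intervals of the first 6 clusters in the order overlapped from neighbor to neighbor, and that of the sixth (Kit) did not overlap that of the seventh (Shh). In the cKO-labelled library the break lay elsewhere, since the fourth (Dcn) did not overlap the fifth (Phactr1) while Kit overlapped Shh. Under the 4 other seeds the clusters made mostly of these inner cells held all the highest ranks for Dlx3 and for Dlx4 in both libraries.

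A Dlx3 UMI was found in 87.4% of the WT inner cells and 92.5% of the cKO-labelled inner cells, against 9.21% and 10.1% of the cells in 3 ORS-like clusters. Thinned to 2000 UMIs per cell, these shares were 31.6% (29.8 to 33.4) and 33.2% in inner cells and 2.33% and 1.79% in ORS-like cells. In 50 WT fibroblast-like cells that entered the sort, which should lack Dlx3 and had a median of 13777 UMIs against 10925 in the ORS-like cells, 12.0% held a UMI before thinning. Their level of 12.1 CPM (5.8 to 22.3) was near that of the ORS-like cells (11.9, 10.4 to 13.5). In 27 cKO-labelled fibroblast-like cells the level was 14.6 CPM (5.9 to 30.2), against 12.8 in the ORS-like cells. The ORS-like levels lay above the 7.90 and 7.30 CPM that free RNA would give at most, and no expression of Dlx3 in the ORS is read from them.

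Dlx4, which lies beside Dlx3, was also an inner-follicle gene, but in another order. The Dcn and Cldn10 cluster had the highest level, 70.8 CPM (65.2 to 76.8) in WT and 63.8 (58.2 to 69.7) in the cKO-labelled library. It was followed by the Ednra cluster at 47.9 and 46.6 CPM and the Kit cluster at 45.3 and 37.2. Counterparts of the Dcn cluster over the seeds ran from 68.0 to 74.5 CPM in WT and from 49.7 to 63.8 in the other library. Those of the Ednra cluster ran from 47.4 to 58.2 and from 45.2 to 56.4 CPM. The ranges of these clusters thus overlapped in the cKO-labelled library and not in WT. The Phactr1 cluster had 34.8 and 25.6 CPM, the Shh cluster 31.9 and 34.2, and Cx-like cells 31.2 and 25.6. IRS-like cells were the lowest of the inner clusters at 22.3 (19.4 to 25.6) and 18.9 (16.1 to 22.2). Dlx4 was thus higher in Cx-like than in IRS-like cells, by a log2 ratio of 0.48 (0.16 to 0.80) in WT and 0.44 (0.06 to 0.81) in cKO-labelled cells. The Dcn cluster exceeded IRS-like cells by 1.67 (1.43 to 1.90) and 1.75 (1.49 to 2.02) on the log2 scale. Both directions held under the 5 seeds. The interval of IRS-like cells met that of no cluster outside the inner clusters, the nearest below being the Frem1 LPC-like cluster in WT (9.695 CPM) and the Prss35 LPC-like cluster in the other library (8.77 CPM). This gap was narrower under other seeds. Dlx4 in the Prss35 counterparts ran from 6.68 to 17.3 CPM in WT and from 8.77 to 14.7 in the other library. IRS-like counterparts ran from 20.6 to 24.9 and from 16.9 to 20.9 CPM.

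Dlx2 did not follow the inner clusters. Its highest level was in the Phactr1 cluster, at 82.0 CPM (75.1 to 89.4) in WT and 92.2 (85.8 to 99.01) in the other library. The LPC-like cluster led by Prss35 and Dscaml1, in which Slit3 and Ret were also leading genes, came next at 68.9 (61.2 to 77.3) and 76.1 (69.3 to 83.4) CPM, and under the 4 other seeds its counterpart was the higher. The Phactr1 cluster also exceeded the Kit cluster in Dlx2 under 1 of 5 seeds only. The highest Dlx3 level over the seeds was the same for both, 183.6 CPM in WT and 193.3 in the other library. Under at least 1 seed they therefore had the same counterpart, and there neither could be the higher. The count of seeds thus does not show how often the order reversed. The Phactr1 cluster was the least stable of the 18, its overlap with its counterpart (shared cells over the cells in either) falling to 24.7% under the least similar seed, and its Dlx2 range over the seeds was 55.6 to 82.0 CPM in WT. The Dcn cluster had 58.1 and 63.5 CPM and the Kit cluster 47.3 and 55.2. The Frem1 LPC-like cluster had 44.5 and 39.1 CPM, and the log2 ratio of the Prss35 cluster over it was 0.63 (0.41 to 0.84) and 0.96 (0.78 to 1.14), with this direction under all 5 seeds. Among the inner clusters the lowest Dlx2 levels were in the differentiated cells, 26.3 and 27.7 CPM in IRS-like and 30.0 and 27.9 CPM in Cx-like cells, whose log2 difference was 0.19 (−0.13 to 0.50) and 0.01 (−0.33 to 0.34). Against IRS-like cells the Dcn cluster was higher by 1.14 (0.92 to 1.37) and 1.19 (0.96 to 1.43). The ORS-like clusters had 10.6 CPM of Dlx2 in either library, against at most 2.33 and 2.24 CPM from free RNA. As for Dlx3, a level above this bound is not read as expression in the ORS.

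Dlx1 separated shaft from sheath. Its highest level was in the Phactr1 cluster, a rank that rested on the partition, since the Phactr1 cluster exceeded the Kit cluster under 1 of 5 seeds in both libraries. As for Dlx2, this count includes at least 1 seed under which both clusters had the same counterpart and neither could be the higher. The Phactr1 cluster had 33.6 CPM (29.2 to 38.4) in WT and 33.55 (29.7 to 37.7) in the other library, and over the seeds its counterparts ran from 24.7 to 33.6 and from 25.8 to 33.55 CPM. Levels of 25.0 (21.7 to 28.7) and 20.2 CPM in the Dcn cluster, 23.0 (20.0 to 26.3) and 22.5 in IRS-like cells, 20.9 and 20.9 in the Kit cluster, and 19.3 and 22.5 in the Prss35 LPC-like cluster overlapped from neighbor to neighbor. The Shh cluster had 9.14 and 12.1 CPM. Cx-like cells had 7.67 (5.3 to 10.8) and 7.79 CPM, from 33 and 31 UMIs, and the Ednra and Krtap8-1 cluster had 4.58 (3.3 to 6.2) and 4.11 CPM, from 43 and 35 UMIs. The log2 ratio of Cx-like over IRS-like cells was −1.56 (−2.16 to −1.05) in WT and −1.51 (−2.13 to −0.98) in cKO-labelled cells, and that of the Ednra cluster over IRS-like cells was −2.31 (−2.83 to −1.85) and −2.44 (−3.02 to −1.93). IRS-like cells were higher under all 5 seeds in both comparisons. The overlap with the counterpart, measured in the same way, was at least 95.7% for the Cx-like and 77.5% for the IRS-like cluster over the 4 other seeds, and at least 43.0% for the Ednra cluster, with a Dlx1 range of 4.09 to 7.08 CPM in WT.

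Dlx5 was rare, and its highest level lay outside the inner clusters. An unnamed cluster led by the companion-layer keratin Krt75 and by Wnt11 (161 and 159 cells) had 8.44 CPM (5.5 to 12.5) in WT and 5.30 (2.9 to 8.9) in the cKO-labelled library, from 25 and 14 UMIs. IRS-like cells came second at 5.00 (3.7 to 6.7) and 2.60 (1.6 to 4.0) CPM, from 46 and 21 UMIs. The Krt75 cluster was the higher under all 5 seeds, but the log2 ratio over IRS-like cells was 0.77 (−0.01 to 1.49) and 1.05 (−0.06 to 2.07), with intervals that included 0. The log2 ratio of IRS-like over ORS-like cells was 2.64 (1.81 to 3.62) and 1.67 (0.71 to 2.63). Cx-like cells had 7 and 5 UMIs of Dlx5, a log2 ratio of −1.54 (−3.01 to −0.46) against IRS-like cells in WT and −0.95 (−2.81 to 0.40) in the other library. In the 50 WT fibroblast-like cells, 11 UMIs of Dlx5 gave 13.3 CPM (6.7 to 23.9) and Dlx6 had 7 UMIs, while 27 cKO-labelled fibroblast-like cells held 0 UMIs of Dlx5, a count that allows up to 6.28 CPM (3 UMIs). No other member was at its highest in the Krt75 cluster, where Dlx3 was 63.4 and 59.5 CPM and Dlx4 had 20 and 2 UMIs.

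The mix of the 5 genes shifted from cup to sheath and shaft. In the Prss35 LPC-like cluster Dlx2 made up 40.8% of the Dlx UMIs in WT and 41.1% in the cKO-labelled library, and Dlx3 42.9% and 41.2%. These shares describe this partition. Under other seeds, the Dlx3 level of that cluster's counterparts reached up to 119 CPM in WT and 113 in the other library, and Dlx2 up to 85.1 and 87.9 CPM. In IRS-like cells Dlx3 made up 75.6% and 75.9%, and in Cx-like cells 75.4% and 78.6%. Among the 6 inner, the Phactr1 and the 2 LPC-like clusters, Dlx4 reached its largest share in the Dcn cluster, 20.3% in WT and 17.9% in the cKO-labelled library.

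**Figure D2:**
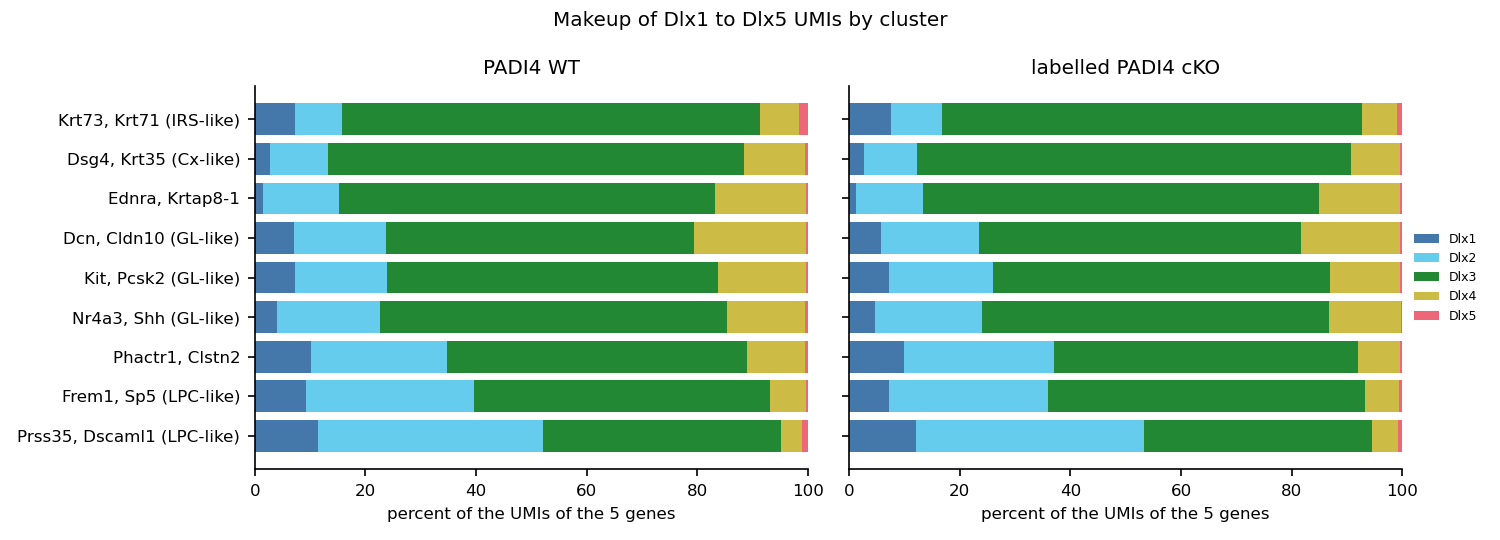
Share of each gene (colors) among the UMIs of Dlx1 to Dlx5 (x axis, percent) in the 6 inner clusters, the Phactr1 cluster and the 2 LPC-like clusters (y axis) of the PADI4 WT library (left) and the library labelled PADI4 cKO (right). Dlx3 makes up 41.2% to 57.4% of the bars of the LPC-like clusters and 75.4% to 78.6% of those of the IRS-like and Cx-like clusters.

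Set against the 3 ORS-like clusters (1499 and 1731 cells), all 5 genes were more than 2-fold higher in the inner clusters of the WT library, where 6.79% of the 12290 genes compared were. In the cKO-labelled library this held for Dlx1 to Dlx4, against 7.55% of 12405 genes, and Dlx5 was 1.69-fold higher. In the Xist-only cells of the WT library Dlx5 gave a log2 ratio of 0.90, which is below 2-fold. Of its 91 WT inner UMIs, 46 lay in IRS-like cells, whose log2 ratio over ORS-like cells was 2.64. The ratio was 0.61 (−0.33 to 1.65) in GL-like, 0.59 (−0.69 to 1.80) in Ednra and 1.10 (−0.48 to 2.43) in Cx-like cells. These 3 intervals included 0, so the pooled Dlx5 value does not describe each inner cluster. Dlx3 had 196 CPM in WT inner cells against 11.9 in ORS-like cells (log2 ratio 4.04, 3.85 to 4.24) and 204 against 12.8 CPM in the other library (3.99, 3.83 to 4.16). Dlx4 gave 3.79 (3.43 to 4.20) and 3.83 (3.49 to 4.22), intervals that overlapped those of Dlx3, and in WT cells thinned to 2000 UMIs it was the larger, at 4.72 against 4.00. The log2 ratios were 2.46 and 2.79 for Dlx1, 1.96 and 2.10 for Dlx2, and 1.32 (0.57 to 2.26) and 0.75 (0.03 to 1.58) for Dlx5. The clusters were made from other genes of the same cells, so these values describe the groups and carry no test.

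Within the IRS-like cluster, Dlx3 went with the sheath keratins and Dlx1 went the other way. For this description, chosen after the data were seen, the cells of each library were ranked by the share of their UMIs from 7 IRS structural genes (Gata3, a factor, left out) and divided into 3 groups of equal size, with the median share going from 0.128% to 0.803% in WT. Dlx3 was 189 CPM (174 to 205) in the low group, 231 in the middle and 297 (278 to 317) in the high group of the WT library, counted over the UMIs outside the list. In the cKO-labelled library it was 169.8, 215 and 299.6 CPM. The log2 ratio of the high over the low group was 0.65 (0.50 to 0.81) and 0.82 (0.65 to 0.99). Dlx1 was 26.9 and 31.2 CPM in the low group and 17.5 and 17.1 in the high group, a log2 ratio of −0.62 (−1.15 to −0.10) and −0.87 (−1.44 to −0.33). Dlx2 gave −0.39 (−0.85 to 0.06) and −0.48 (−0.97 to −0.01), an interval that excluded 0 in the cKO-labelled library only. Dlx4 gave −0.33 (−0.85 to 0.18) and 0.18 (−0.40 to 0.76), within counting error. Median depth differed little between the groups, at 15386, 15365.5 and 15345 UMIs in WT.

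In Cx-like cells ranked in the same way by 11 shaft genes, the picture was weaker. Dlx3 was 195 CPM in the low and 232 in the high group of the WT library, a log2 ratio of 0.25 (0.02 to 0.49), with 223 in the middle group. In the cKO-labelled library it was 242, 193 and 259 CPM, with the middle group lowest, and the high over the low group gave 0.10 (−0.13 to 0.32). Dlx2 gave −0.60 (−1.27 to 0.03) in WT, an interval that includes 0, and −1.09 (−1.92 to −0.36) in the cKO-labelled library. Dlx1 had 15 UMIs in the low and 9 in the high group of the WT library and 17 and 0 in the other, where the interval of the high group reached 2.99 CPM. Dlx4 gave −0.49 (−1.19 to 0.17) and −0.72 (−1.55 to 0.05).

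**Figure D3:**
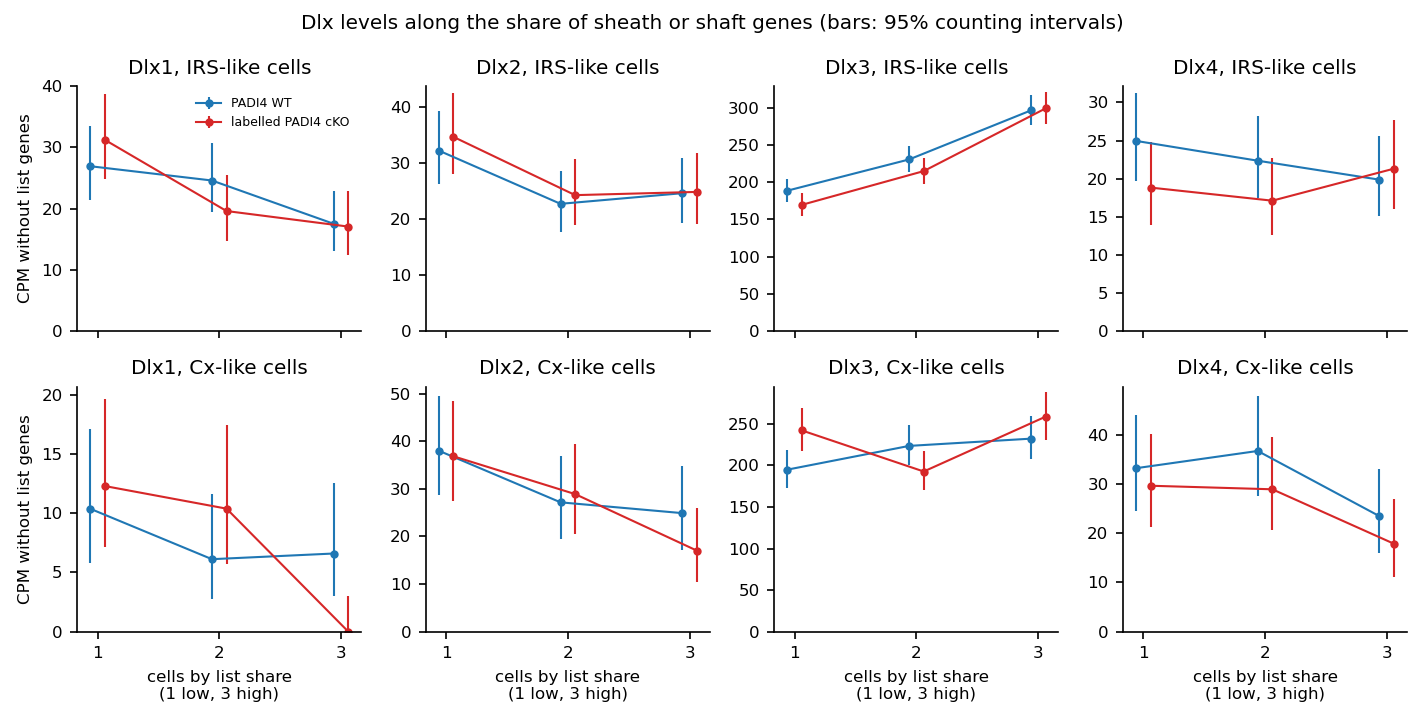
Dlx1 to Dlx4 levels (y axes from 0, CPM over UMIs outside the list) in IRS-like cells (top) and Cx-like cells (bottom) divided into 3 equal groups from low to high share of sheath or shaft genes (x axes), for PADI4 WT (blue) and the library labelled PADI4 cKO (red), with 95% counting intervals. In IRS-like cells Dlx3 goes from 189 to 297 and from 169.8 to 299.6 CPM, and Dlx1 from 26.9 to 17.5 and from 31.2 to 17.1 CPM.

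Single cells often held UMIs of several Dlx genes. Of 2704 WT inner cells, 93.3% held a UMI of Dlx1, Dlx2, Dlx3 or Dlx4, and 752 cells held at least 3 of these 4 genes. Dlx2 was found in 42.9% (40.9 to 44.9) of the WT inner cells with Dlx3 and in 22.3% (18.0 to 27.1) of those without it. After each cell was thinned to 2000 UMIs the shares were 7.96% (6.2 to 10.0) and 6.43% (5.4 to 7.6), and for Dlx4 they were 7.14% and 7.68%. In the cKO-labelled library the thinned shares were 8.43% and 8.59% for Dlx2 and 8.30% and 6.97% for Dlx4. The intervals overlapped, so a difference between Dlx3-positive and Dlx3-negative cells was not detectable at this depth.

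Over the 18 clusters, with CPM averaged over the libraries on a log2(CPM + 1) scale, the nearest pairs within the family were Dlx3 with Dlx4 (Pearson r = 0.92, Spearman rho = 0.87) and Dlx1 with Dlx2 (r = 0.90, rho = 0.85), which are the genomic neighbors. Dlx2 with Dlx3 gave r = 0.84, and Dlx4 with Dlx5 r = 0.28. The clusters share libraries, depth and cells of one lineage, so these are descriptions over 18 points. Dlx4os, which overlaps Dlx4, gave r = 0.96 with it and was 39.3 CPM in WT and 36.6 in cKO-labelled inner cells. Dlx1as gave r = 0.88 with Dlx1 and had 485 and 503 UMIs in the epithelial cells. Dlx4os was singled out after its values were seen, and without the strand setting the UMIs of an antisense gene cannot be told from those of its partner where they overlap.

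Of 10867 genes with at least 10 CPM in a cluster, the 5 most like Dlx3 were Msx2 (r = 0.98), another homeobox gene and a BMP target, Cd2bp2, Mboat1, Ap1s2 and Tdg. Dlx4 was matched by the metallothionein genes Mt1 and Mt2 and by Dhx15, Mrpl1 and the homeobox gene Msx1 (r = 0.93 to 0.95). Dlx2 was matched by Sox5os4 (r = 0.95), Ddx1, Sox5os3, Srsf9 and Mapre1. The genes most like Dlx1 were Acat1 (r = 0.97), Psmc4, a proteasome subunit, Sox5os4, Map3k15 and Sox5os3. Those for Dlx5 were Vsig10, Pak4, Ppp1r2, Ankrd13a and Arf6 (r = 0.91 to 0.95). By Spearman correlation 0 to 3 of each 5 were named again. A high r does not mean a large change. Cd2bp2 ran only from 18.9 to 33.8 CPM over the clusters, Tdg from 33.2 to 57.9 and Psmc4 from 113 to 188. Ddx1 ran from 69.4 to 134 CPM and Dhx15 from 99.7 to 159, against 5.96 to 354 for Msx2. Msx1 and Msx2 were also naming markers of the GL list.

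A list of 25 BMP, Wnt and transcription factor genes set the Dlx genes beside their signals. In the WT library 19 of the 25 were more than 2-fold higher in inner than in ORS-like cells and 2 were lower, and in the cKO-labelled library 17 and 1, with a median log2 ratio of 1.70 in WT against −0.01 over all genes compared. Of the 10 BMP genes 6 were higher in WT and 5 in the other library, among them the ligands Bmp2 (a log2 ratio of 2.94 in WT) and Bmp4 (95.5 against 10.6 CPM), the decoy receptor Bambi, and the targets Id1 and Id2. The receptor Bmpr1a was 210.1 against 215 CPM, and the effector Smad1 was lower in WT (76.5 against 157 CPM). Of the 6 Wnt genes 5 were higher, including Wnt10b (55.6 against 1.46 CPM) and Lef1 (997 against 53.7 CPM), and the repressor Tcf7l1 was lower (36.4 against 431 CPM). Msx1 (224 against 7.38 CPM), Msx2 (191 against 8.84), Foxn1 (20.6 against 0.314) and Hoxc13 (191 against 59.96) were among 8 of 9 transcription factors that were higher in WT, while Trp63, the basal keratinocyte factor, was 499 against 920 CPM. Several of these genes also served as naming markers, so their counts describe the groups.

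The comparison of the libraries asked whether Dlx levels differed in the absence of PADI4. Of the 30 combinations of a member with an inner cluster, 22 had at least 100 UMIs over both libraries, and 0 of them passed a log2 ratio of 0.5 in either direction, where 3.52% of all gene and cluster combinations did. The 22 ratios (cKO over WT) ran from −0.31 to 0.40, 11 were below 0, and 6 intervals excluded 0. The share of all gene and cluster combinations whose interval excluded 0 was not counted, so these 6 are given as description only. Dlx4 was lower in 5 of 6 inner clusters of the cKO-labelled library, and its interval excluded 0 in the Kit cluster (−0.29, −0.48 to −0.09). Dlx3 was higher in 5 of 6, with intervals above 0 in the Ednra (0.20, 0.10 to 0.29) and Shh (0.22, 0.07 to 0.36) clusters. Dlx2 was higher in 4 of 6, with intervals above 0 in the Kit (0.22, 0.05 to 0.40) and Shh (0.28, 0.01 to 0.55) clusters. Dlx1 gave −0.31 in the Dcn cluster, from 204 and 152 UMIs, with an interval whose upper end lay just below 0. Over the seeds its level there ran from 22.1 to 29.8 CPM in WT and from 20.2 to 29.8 in the other library. The seed ranges of the libraries also overlapped for Dlx2 in the Kit (47.3 to 59.3 and 55.2 to 71.3 CPM) and Shh (42.1 to 48.1 and 47.8 to 52.3) clusters. They did not overlap for Dlx4 in the Kit cluster or for Dlx3 in the Ednra and Shh clusters.

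**Figure D4:**
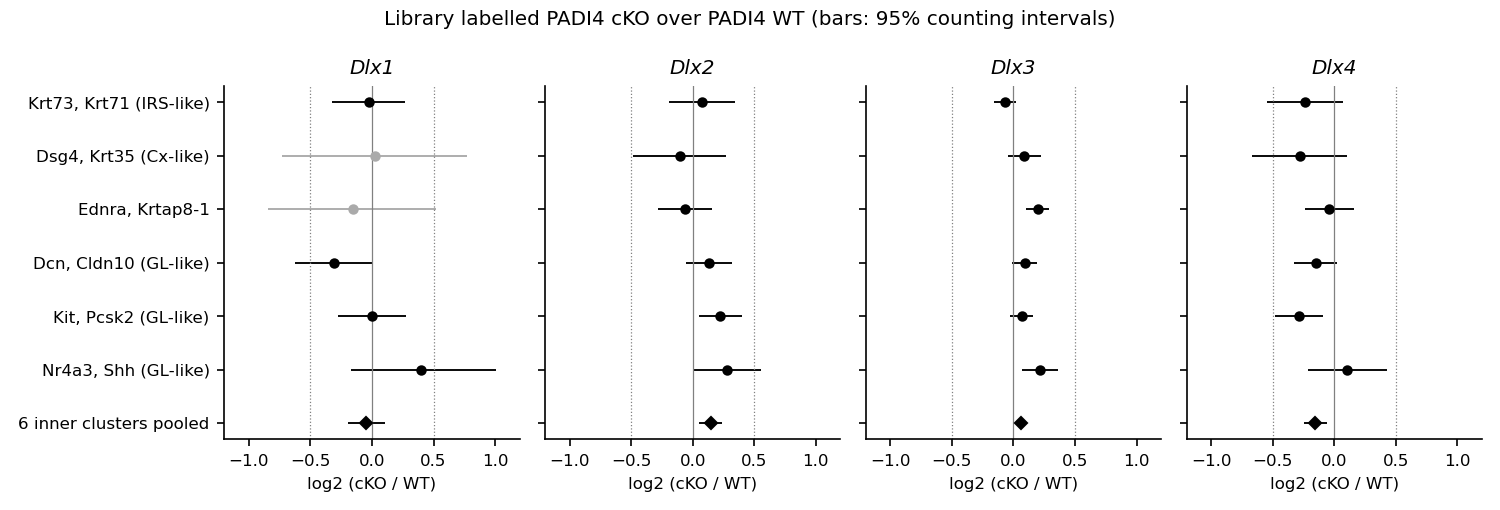
Log2 ratio of the cKO-labelled over the PADI4 WT library (x axes) for Dlx1 to Dlx4 in the 6 inner clusters (points) and in these pooled (diamonds), with 95% counting intervals. Dotted lines mark ±0.5, gray points had under 100 UMIs in all, and the black points of single clusters lie between −0.31 and 0.40.

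Pooled over the inner clusters, the log2 ratios were −0.05 (−0.20 to 0.10) for Dlx1, 0.15 (0.05 to 0.24) for Dlx2, 0.06 (0.02 to 0.10) for Dlx3 and −0.15 (−0.25 to −0.06) for Dlx4. Dlx5, at −0.52 (−1.01 to −0.05) from 91 and 64 UMIs, was the only member past 0.5, which 3.29% of 12411 genes passed, and it ran from −0.65 to −0.23 under the alternatives, so that the call ended under some. The Dlx4 ratio was 0.0036 in cells thinned to 2000 UMIs, and below 0 in the 15 other alternatives. The median over all genes was −0.01. Within the WT library, inner cells in which Xist but no Y-linked gene was counted, compared with the reverse, gave 0.08 (−0.08 to 0.23) for Dlx2, −0.10 (−0.26 to 0.05) for Dlx4 and −0.02 (−0.09 to 0.05) for Dlx3. In the Xist-only cells alone, the ratio of the libraries was 0.067 for Dlx2, −0.11 for Dlx4, 0.051 for Dlx3 and −0.53 for Dlx5, each with the sign of the pooled ratio, and 0.12 for Dlx1, with the opposite sign. These ratios rest on 720 WT inner cells and are given without intervals. Their signs alone therefore do not show that a difference between the libraries remains within the Xist-only cells. In IRS-like cells Dlx5 gave −0.93 (−1.76 to −0.17), from 46 and 21 UMIs. Dlx5 reached the limit of 100 UMIs in no single inner cluster, so this ratio was not among those counted above. Its UMIs were 11 and 13 in the Kit, 11 and 10 in the Dcn and 11 and 12 in the Ednra cluster. The Shh cluster had 5 and 3 and Cx-like cells 7 and 5, so the pooled Dlx5 ratio rested mainly on IRS-like cells.

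Outside the inner clusters, differences ran in both directions. Dlx3 was higher in the cKO-labelled cells of the ORS-like cluster led by Tgfb2 and Lmo3, at 16.8 against 11.4 CPM (log2 ratio 0.55, 0.07 to 1.05, from 56 and 102 UMIs), but over the seeds its counterparts ran from 6.88 to 19.2 CPM in WT and from 13.3 to 17.1 in the other library. Dlx2 was higher in the unnamed cluster led by Pi15 and Sfrp1, at 22.4 against 17.8 CPM (0.33, 0.05 to 0.61), with ranges over the seeds of 17.0 to 24.9 and 17.1 to 19.8 CPM. Dlx4 was lower in the cKO-labelled cells of the Phactr1 cluster, at 25.6 (22.3 to 29.3) against 34.8 (30.4 to 39.7) CPM, a log2 ratio of −0.44 (−0.72 to −0.16), while Dlx2 gave 0.17 (0.01 to 0.33), Dlx3 0.05 (−0.07 to 0.16) and Dlx1 0.00 (−0.26 to 0.26). Over the seeds, the Dlx4 level of its counterparts ran from 34.8 to 42.6 CPM in WT and from 25.6 to 34.7 in the cKO-labelled library. In the Krt75 cluster Dlx4 had 20 UMIs in WT and 2 in the other library, a log2 ratio of −2.87 (−6.30 to −1.11), with ranges over the seeds of 5.25 to 6.75 and 0 to 0.774 CPM, and its value was singled out after it was seen. Dlx3 there gave −0.09 (−0.41 to 0.22) and Dlx5 −0.65 (−1.73 to 0.33), while Dlx1 gave 0.57 (−0.02 to 1.18) from 43 and 57 UMIs. The Frem1 LPC-like cluster had −0.49 (−0.83 to −0.15) for Dlx1, at 13.6 and 9.67 CPM, with ranges of 10.4 to 14.2 and 9.61 to 11.7 CPM over the seeds, and −0.19 (−0.36 to −0.01) for Dlx2. In the unnamed cluster led by Stfa3 and Macrod2os1, Dlx3 was 14.9 against 4.58 CPM (−1.64, −2.74 to −0.81, from 122 and 11 UMIs), but its counterparts over the seeds had up to 18.5 CPM in the cKO-labelled library. The overlap of this cluster with its counterpart fell to 25.9% under the least similar seed, so the counterparts need not hold the same cells.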

How the data were processed

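The authors deposited raw UMI counts per gene and droplet barcode of 1 PADI4 WT and 1 PADI4 cKO library, made with Cell Ranger 7.1.0 per the file headers. The build mm10 and the tools Cell Ranger and Scanpy are named in the submitters' processing notes. Empty droplets were still included, and the libraries held 143938990 and 143945294 UMIs in all. Whether introns or strand were used in counting is not given in the sources used here.

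The study's limits were applied to each droplet: 2000 to 60000 UMIs, 1000 to 8000 genes, at most 20% mitochondrial and 1% hemoglobin UMIs, and a ribosomal share between the 5th and 99th percentile. Each cell's counts were brought to a sum of 10000 and log-transformed, cell cycle scores were regressed out of 1000 variable genes (in place of Harmony), and 50 principal components and a graph of 15 neighbors, computed in double precision from exact distances to keep the clusters the same on different processors, entered Leiden clustering run to convergence at resolution 1.0 with random seed 0. All genes named Dlx, Xist, Tsix and 4 Y-linked genes were left out of the clustering. To be named, a cluster needed at least 3 markers of a list at 5 CPM or more and 1.5-fold above their level in the remaining cells. No other list could have as many raised, and at least 50% of the list had to be raised. In addition, no other list could supply more of the 10 leading genes, and less than 90% of the cells could come from 1 library. Fibroblast and melanocyte names needed only the marker count and the lead over other lists. CellBender was not run, and Scrublet doublets (329 and 318, by the threshold of the cKO-labelled library, since that of the WT library called 1 cell) were kept except in an alternative. The neighbor method, convergence, naming rules and this threshold were set after the data were seen, and levels of the Dlx genes under earlier partitions had been seen by then. The members, gene lists and marker lists were chosen with earlier results of these data known.

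UMIs were summed per cluster and library. CPM carry exact Poisson intervals, shares exact binomial intervals, and log2 ratios (0.5 UMIs added to each sum) exact conditional binomial intervals, all at 95%, with no p-value, since cells are not replicates. A ratio was counted with at least 100 UMIs and called past 0.5, the fold the study used. Named genes are the members, their neighbors and antisense genes, the 5 genes most correlated with each member, and the fixed list of 25. Dlx6os2 and Krt85 are not in the gene list. The ratio was run on simulated Poisson counts with known folds. These counts vary by counting error only, as the interval assumes, so the run cannot assess variation between cells or libraries. Homeoboxes were read from GENCODE transcript sequences and placed on GRCm38 with the annotation. Tools were Python 3.11.15, Scanpy 1.11.5, SciPy 1.17.1, NumPy 2.4.6, pandas 2.3.3, leidenalg 0.10.2 and matplotlib 3.10.9.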

Additional observations from a re-analysis of the deposited data

How the results depend on the processing

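Of 168 values under alternatives, 131 stayed within the counting interval of the value reported (for the most like genes, within 1.5 times the count of 5), 36 moved out of it, and in 1 a ratio whose interval excluded 0 changed sign. Dlx1 in cKO over WT, whose interval included 0, changed sign in 8 of 16 alternatives. The log2 ratios of inner over ORS-like clusters in WT stayed above 0 in all 15 alternatives for each of the 5 genes, but Dlx5 fell below 2-fold, to 0.90, in cells with Xist and no Y-linked UMIs. The ratios were 3.27 (Dlx4) at 1000 UMIs per cell, 3.75 (Dlx3) and 3.29 (Dlx4) at 4000, 4.45 (Dlx3) without doublets, 1.75 (Dlx2) and 3.79 (Dlx3) at resolution 0.5, and 2.21 (Dlx2) and 4.40 (Dlx3) with no cell cycle correction. With random seed 2 they were 2.04 (Dlx1), 1.499 (Dlx2) and 3.52 (Dlx3), with seed 3 3.84 (Dlx3), and with seed 4 1.74 (Dlx2), 3.54 (Dlx3) and 3.38 (Dlx4). Thinning to 2000 UMIs per cell gave 3.42 (Dlx1) and 4.72 (Dlx4), subtraction of the empty droplets 2.24 (Dlx2), 5.55 (Dlx3) and 4.73 (Dlx4), and cells with Xist and no Y-linked UMIs 4.63 (Dlx3) and 4.21 (Dlx4). The cause of these shifts was not tested.

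For cKO over WT in the inner clusters, thinning gave −0.22 (Dlx1), 0.29 (Dlx2) and 0.0036 (Dlx4, reversed), and the Xist-only cells gave 0.12 for Dlx1. The sign held in 16 of 16 alternatives for Dlx2, Dlx3 and Dlx5, in 15 for Dlx4 and in 8 for Dlx1. Dlx5 went from −0.65 (thinned) to −0.23 (resolution 2.0), on both sides of the threshold of 0.5. The shares of WT inner cells with Dlx3 that also held Dlx1, Dlx2 or Dlx4 were 4.45%, 7.96% and 7.14% after thinning. By Spearman correlation 1, 3, 1, 1 and 0 of the 5 genes named for Dlx1 to Dlx5 were named again, and with a minimum of 50 CPM 3 each for Dlx1 and Dlx3 and 2 for Dlx5. The seeds, the equal weighting, the omission of the unnamed inner cluster and the groups within the IRS-like and Cx-like clusters were added after the data were seen.

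No paired analysis was possible because each genotype had 1 library. Depth limited Dlx5 everywhere and Dlx1 in Cx-like and Ednra cells. With 1 library per genotype, differences between animals and libraries cannot be told apart from genotype.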
